A study of Drosophila melanogaster with 15 samples.

Results

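The larval central nervous system of Drosophila melanogaster was compared with 4 other dissected tissues on 2-colour arrays. Its 3 arrays, of 15 in all, were set against the equally weighted mean of the other tissue means, namely midgut, wing disc, salivary gland, and epidermis dissected together with its muscle (3 arrays each). All animals were wild-type larvae of the Canton S strain, taken about 18 h before they formed a puparium, and no group carried a mutation, transgene or treatment. Each array paired amplified RNA of 1 tissue, in Cy5, with a whole animal reference of identical age, in Cy3, and the 3 samples of a tissue were independent. A value is the log2 of the tissue to whole animal ratio, centred on the median of its array, so that a value of 1 is a 2-fold higher ratio than the median gene of that array. A difference is the central nervous system mean minus the mean of the other 4 tissues, in which the whole animal reference cancels. Of 13128 features on the arrays, 8432 (6624 of them named genes) were measured on at least 2 arrays in every tissue and could be tested.

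At this stage the brain and ventral nerve cord hold cells of very different ages. Neuroblasts, the neural stem cells, divide asymmetrically and give rise to the neurons of the future adult, while functioning larval neurons and peptidergic cells of embryonic origin lie among them, wrapped in glia. The ring gland, which makes the moulting steroid ecdysone, and the eye discs are attached to the brain and can be taken along in a dissection, as can tracheae, fat body and blood cells. In whole tissue, more cells of a type and more RNA per cell cannot be told apart.

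The dissected tissue carried its markers. The log2 ratio of elav, which encodes the RNA-binding protein that marks differentiated neurons, was 1.97, 2.44 and 2.74 on the central nervous system arrays. The other 12 arrays ran from -1.29 to 0.18, so the groups did not overlap. The difference was 2.86 (SE 0.27), or 7.26-fold (limma, adjusted p = 4.94e-06). Nrt, or Neurotactin, a transmembrane adhesion protein of growing axons, stood at 3.23, 3.08 and 3.72 against -1.47 to 1.17 elsewhere. Its difference of 3.87 (SE 0.22; limma adjusted p = 3.26e-08) was 14.6-fold, and the wing disc, with a mean of 0.98, was the next tissue. The third marker, 7B2, encodes a chaperone of the prohormone convertase that cleaves neuropeptide precursors. Its ratios were 2.64, 2.59 and 2.66 against -1.7 to 0.26 on 11 other arrays, a difference of 3.34 (SE 0.23; limma adjusted p = 3.49e-07). Each marker was past the test against each of the other 4 tissues.

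Arrays of the central nervous system measured 12205, 10986 and 9260 of 20000 rows, within the range of 7747 to 13505 over all arrays. Across the 4540 features on every array their ratios correlated with each other at 0.883 to 0.917, and the median SD between them was 0.257 log2. No central nervous system array went against its label. The small number of arrays limits the precision of each value, and the p-values cover the spread between the 3 independent samples of a tissue.

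Against the mean of the other 4 tissues, 1008 features were higher and 858 were lower in the central nervous system at an adjusted p under 0.05, or 12% and 10.2% of those tested. At least log2 1 higher were 443 features (5.25%), and 493 were at least log2 1 lower (5.85%). The median difference over all features was -0.07. Leaving out central nervous system replicate 2 reduced the calls from 1866 to 1159 and leaving out replicate 3 reduced them to 1182. Of the 1008 higher features, 697 had their highest other mean in wing disc, 133 in epidermis, 96 in salivary gland and 82 in midgut. Of the 858 lower features, 376 were highest in midgut, 241 in epidermis, 188 in salivary gland and 53 in wing disc.

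By single tissues, the wing disc gave the fewest calls. Central nervous system and wing disc differed in 301 features that were higher (3.24% of 9277) and 212 that were lower (2.29%). The pair count fell from 513 to 312 without wing disc replicate 2, to 328 without central nervous system replicate 2 and to 332 without central nervous system replicate 3. Against midgut, 1389 features were higher (14.3% of 9729) and 1222 were lower (12.6%). Against salivary gland the counts were 1132 higher (11.5% of 9845) and 761 lower (7.73%), and against epidermis 675 higher (7.02% of 9619) and 809 lower (8.41%). The pair contrasts share the central nervous system arrays, and their difference in counts was not tested.

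**Figure D1:**
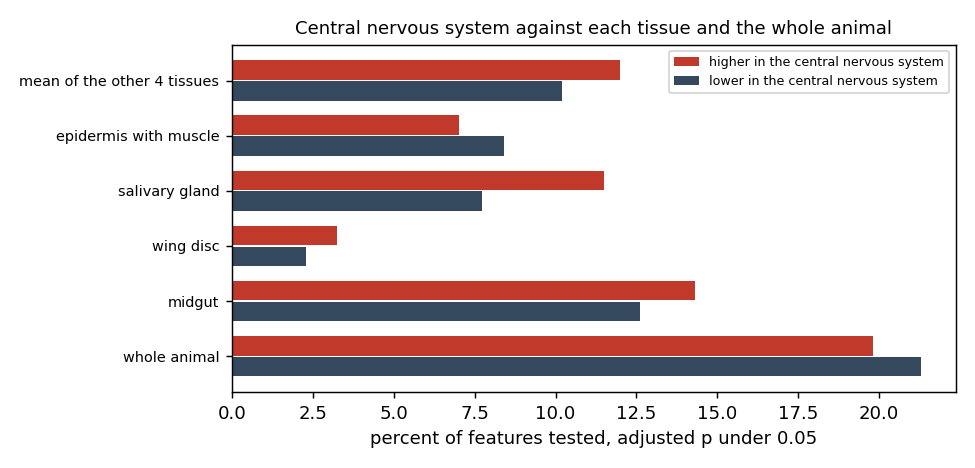
Percent of features tested that were higher (red) or lower (dark blue) in the central nervous system at a limma adjusted p under 0.05, against the mean of the other 4 tissues, against each tissue and against whole animal. The wing disc bars, 3.24% and 2.29%, are the shortest and the whole animal bars, 19.8% and 21.3%, the longest.

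A stricter rule asked that a feature be at least log2 1 above each other tissue with each pair past the test. It was met by 100 features, 84 of them named genes (1.19% of those tested), and the reverse, lowest in the central nervous system, by 13 (0.154%). The count of 100 fell to 63 without wing disc replicate 1 and to 64 without wing disc replicate 2. The count of 13 was 36 without central nervous system replicate 1, 6 without replicate 2 and 5 without replicate 3. On 396 features (4.70%) every central nervous system array lay above every other array, and on 139 (1.65%) every one lay below.

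Ggamma30A encodes the gamma subunit of a G protein, known from fly photoreceptors. Its ratios were 2.57, 2.69 and 2.26 against -2.02 to -0.56 on all other arrays. The gap of 3.56 to the next tissue was the widest of the 84 named genes, and the difference was 3.78 (SE 0.24; limma adjusted p = 8.34e-08). Its 2 rows on the array differed by more than log2 1 in some tissues and gave 4.96 and 2.60 when tested apart. Gbeta5, a G protein beta subunit that was singled out after its values were seen, stood at 2.34, 2.77 and 2.27 with a difference of 2.62 (limma adjusted p = 8.57e-05).

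Gabat encodes GABA transaminase, the enzyme that breaks down the inhibitory transmitter GABA. It stood at 1.78, 2.45 and 2.72 on the central nervous system arrays. On 11 others it lay between -2.0 and -0.7, each time below the median gene of the array. The difference was 3.72 (SE 0.24), 13.2-fold, with a limma adjusted p of 2.42e-07. Gad1, which makes GABA and was picked after its values were seen, was measured at 0.28, 0.27 and 0.01 and its difference of 0.05 was not past the test (limma adjusted p = 0.884).

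The glial gene alrm, expressed in astrocyte-like glia of the fly, reached 1.92, 2.84 and 2.26 against -1.75 to -0.06 elsewhere. Its difference was 2.95 (SE 0.31; limma adjusted p = 1.21e-05), and no array of another tissue came within log2 1 of the lowest central nervous system array. Tace, a membrane-bound protease of the ADAM family, stood at 2.01, 1.97 and 2.97 against -0.83 to 0.1 on 9 other arrays (difference 2.69, SE 0.27; limma adjusted p = 2.57e-05).

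Several genes of the same size of difference have only a computed gene number as their name. CG9686 stood at 3.06, 3.45 and 2.78 with every other array at or below -0.05, and its difference of 3.77 (SE 0.21; limma adjusted p = 3.26e-08) was as large as that of Ggamma30A. CG4409 had the largest difference of all named genes, 3.99 (SE 0.47; limma adjusted p = 2.68e-05). Its central nervous system ratios were 3.25, 1.97 and 2.85, and its tissue means elsewhere ran from -2.36 in epidermis to 0.30 in midgut. CG8245, CG3618, CG13148 and CG5888 had differences of 3.07, 3.02, 2.98 and 2.94. CG8245 was measured on 2 central nervous system arrays and the others on 3. All of them were highest in the central nervous system, and each kept its call in every alternative run except where it lacked the arrays to be tested.

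**Figure D2:**
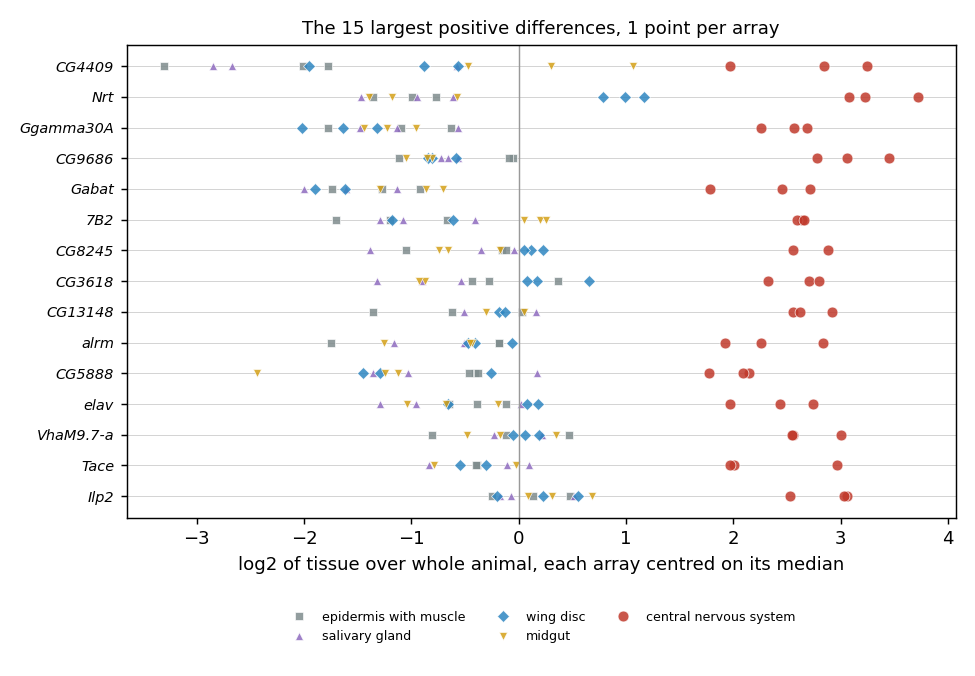
Log2 ratio to whole animal (x axis) on each array for the 15 named genes with the largest positive differences among those whose central nervous system arrays (red circles) lie above all other arrays. For elav the red circles stand at 1.97 to 2.74 and all other arrays at or below 0.18.

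Most neuropeptide genes did not pass the test, while 5 of them met the rule for genes highest in the central nervous system. Of 31 neuropeptide, insulin-like and dense core granule genes on the array, 20 were tested, 6 were higher and 0 lower, with a median difference of -0.00. Over all features tested, 12% were higher, 10.2% were lower and the median was -0.07. Besides 7B2 the higher genes included Ilp2, the insulin-like peptide made by neurosecretory cells of the brain, at 2.53, 3.06 and 3.03 against -0.25 to 0.68 on the 12 other arrays. Its difference was 2.68 (SE 0.22; limma adjusted p = 9.98e-07), and the highest other tissue, midgut, had a mean of 0.36. By pairs, 3 of 23 genes of the list were lower than in salivary gland (7.73% of all features) and 3 of 24 than in midgut (12.6%). In the same pairs 7 of 23 and 7 of 24 were higher (11.5% and 14.3%). Against epidermis 8 of 23 were higher (7.02%) and against wing disc 6 of 22 (3.24%), with 0 lower in either.

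Cadps, which primes dense core granules for release, stood at 1.74, 2.25 and 2.25 with a difference of 2.31 (SE 0.22; limma adjusted p = 5.68e-06). Its 3 rows disagreed in size, at 0.98, 2.23 and 3.63. Lk, or Leucokinin, a diuretic peptide of the nerve cord, stood at 1.54 and 2.05 on 2 arrays (difference 1.56, SE 0.25; limma adjusted p = 0.000667). Nplp1, a peptide precursor, was spread widely at 0.35, 1.19 and 1.92, yet every array lay above the other tissues' highest value of 0.15 (difference 1.27, SE 0.26; limma adjusted p = 0.0025). Capa, the sixth, was measured at 0.31 and 1.10 and overlapped the midgut arrays (difference 1.09; limma adjusted p = 0.0129). With epidermis left out of the mean of the other tissues, Capa was not past the test (difference 0.82; limma adjusted p = 0.0573).

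Among members not past the test were processing enzymes and peptides shared with the gut. Phm, which amidates neuropeptides, was measured at -0.18, -0.06 and -0.22 with a difference of -0.20 (limma adjusted p = 0.425). CCHa1, a peptide also made by midgut endocrine cells, had its highest mean in midgut, 1.10, against 0.15 to 0.31 on the central nervous system arrays. ITP, an ion transport peptide, had mean ratios above 0 in all 5 tissues, with 1.57 in the central nervous system and 2.46 in midgut.

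Many of these genes were blank in other tissues and could be tested only against the whole animal. That comparison leaves out the spread of the reference and holds any dye effect of the gene, since no dyes were swapped. Such features were kept because at least 2 central nervous system arrays measured them while another tissue fell short of 2. This filter can favour genes high in the central nervous system, so their counts and p-values are no separate support. The same holds for all genes below compared only with the whole animal. Over all 10473 features compared with it, 19.8% were higher and 21.3% lower. Over the 2041 features of this kind, 366 were higher than the whole animal (17.9%) and 92 were lower (4.51%). Of 6 neuropeptide and granule genes among them, 5 were higher and 0 lower. FMRFa, the gene with the highest mean ratio of these, stood at 2.61 and 3.44 on 2 central nervous system arrays and at -0.38 to 0.92 on the 7 other arrays that measured it (mean 3.02, SE 0.28; limma adjusted p = 1.68e-05). Pdf, the peptide of the clock neurons, was measured at 1.5 and 2.33, above its 7 other values of 0.41 to 1.18 (mean 1.91, SE 0.26; limma adjusted p = 0.000234). Crz, or Corazonin, stood at 1.0, 1.26 and 1.24 against -0.06 to 0.62 elsewhere (mean 1.17; limma adjusted p = 3.5e-05). Eh, the eclosion hormone, stood at 1.5 and 1.10, below the only wing disc value of 1.69.

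**Figure D3:**
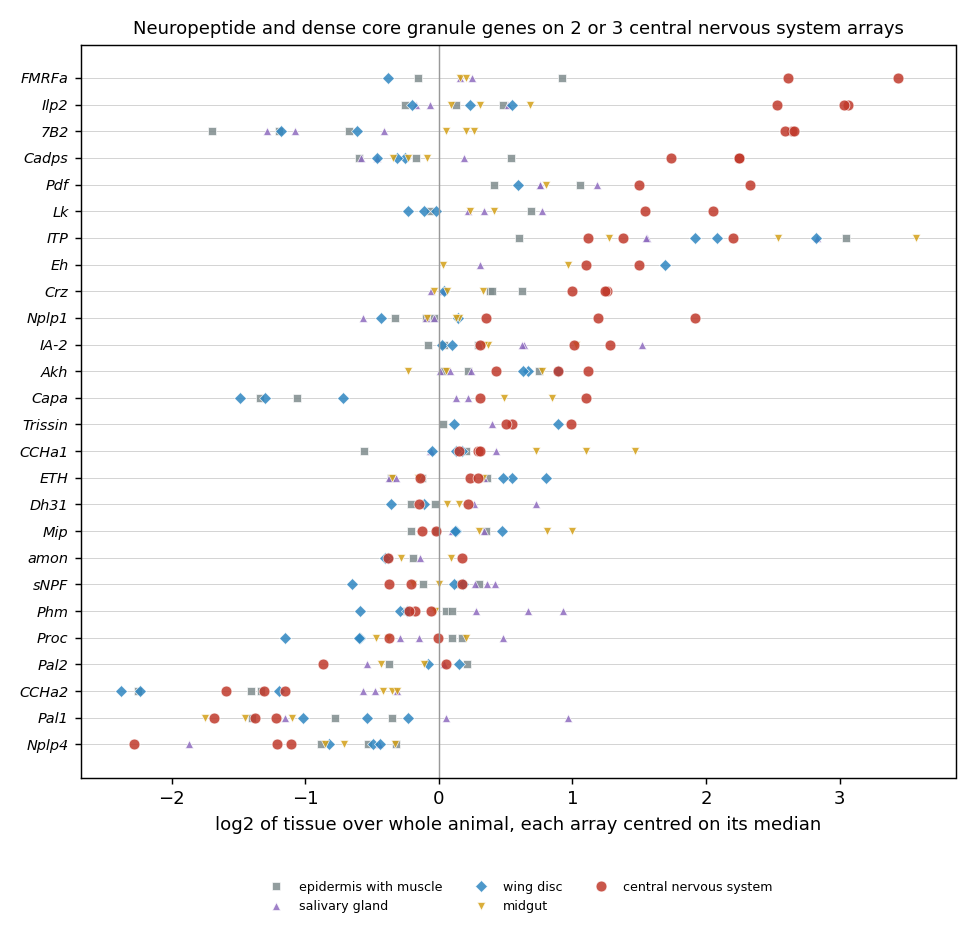
Log2 ratio to whole animal (x axis) on each array for the 26 neuropeptide and dense core granule genes measured on at least 2 central nervous system arrays, ordered by their mean there. Red circles, the central nervous system, lie above all other arrays for FMRFa, Ilp2, 7B2, Cadps, Pdf, Lk, Crz and Nplp1 and overlap them for the other 18 genes.

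Most genes of neuronal identity and of the synapse did not pass the test. Of 18 tested, 5 were higher, 1 was lower and the median difference was 0.18, where over all features 12% were higher and 10.2% lower. Next to elav, nrv3, the neuronal beta subunit of the sodium pump, was higher, at 2.03, 1.35 and 2.28 (difference 2.28, SE 0.26; limma adjusted p = 7.17e-05). The 9 other arrays that measured nrv3 ran from -0.83 to 0.43. The third was unc-13, which primes synaptic vesicles, at 1.48, 0.55 and 1.90 (difference 1.68, SE 0.27; limma adjusted p = 0.000423).

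The other higher genes were shi, the dynamin that recycles vesicles, and brp, of the active zone. The ratios of shi were 1.12, 1.09 and 1.51, above all 12 other arrays (difference 0.64, SE 0.20; limma adjusted p = 0.0265), and it was not past the test without central nervous system replicate 2 (0.72; limma adjusted p = 0.0521) or replicate 3 (0.51; limma adjusted p = 0.158). Those of brp were 0.59, 0.34 and 0.96 (difference 0.68, SE 0.21; limma adjusted p = 0.0282), its 2 rows gave 0.28 and 0.77, and it was not past the test without central nervous system replicate 1 (0.70; limma adjusted p = 0.0654) or replicate 3 (0.51; limma adjusted p = 0.173).

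Of the 12 genes that did not pass, 4 of vesicle fusion and recycling are given here, picked after their values were seen. The vesicle SNARE gene nSyb stood at 0.39, 0.07 and 0.33 (difference 0.36; limma adjusted p = 0.244). Its partner Snap25 stood at 0.27, 0.35 and 0.27, where the means of the other tissues ran from 0.32 to 0.51 (difference -0.13; limma adjusted p = 0.715). Csp and EndoA, of vesicle fusion and recycling, had differences of -0.13 and 0.16. Rbp9, a neuronal relative of elav, was lower, at -2.20, -2.01 and -3.31. Its epidermis mean was 0.51 and its difference -1.40 (SE 0.27; limma adjusted p = 0.00172).

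Among the 7 genes of the same list that could be compared only with the whole animal, 5 were higher and 0 lower. Over all features of this kind the shares were 17.9% and 4.51%. The 3 given here were picked after their values were seen. Syn, or Synapsin, a vesicle protein, stood at 2.41, 1.69 and 2.04, with all 5 other values at or below -0.08 (mean 2.04, SE 0.19; limma adjusted p = 3.51e-05). Nlg2, a synaptic adhesion protein, stood at 0.76, 1.63 and 1.98 (mean 1.45; limma adjusted p = 0.000352). Nrx-1, another synaptic adhesion protein, stood at 0.62, 1.01 and 1.16 (mean 0.93; limma adjusted p = 0.00877). Syn and Nrx-1 lay above every other array that measured them, and Nlg2 overlapped.

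Transmitter genes were thinly measured, with 6 of 18 tested, of which 1 was higher and 1 lower (median difference -0.19). Over all features 12% were higher and 10.2% lower. Gabat, given above, was not a member of this list. The list had 0 calls without central nervous system replicate 1 or 2, epidermis replicate 2, or midgut replicate 1 or 2, and 1 without central nervous system replicate 3, epidermis replicate 3, salivary gland replicate 2, or wing disc replicate 1 or 2. Vmat, the vesicular transporter of monoamines, was higher, at 2.18 and 1.12 on 2 arrays against -0.56 to 0.89 on 10 others (difference 1.43, SE 0.35; limma adjusted p = 0.0101). It was not testable against the other tissues without central nervous system replicate 1 or 2. The lower gene was ple, which encodes tyrosine hydroxylase of dopamine synthesis and is also used in cuticle, at -0.14, -0.05 and -0.40 with an epidermis mean of 2.64 (difference -0.66, SE 0.21; limma adjusted p = 0.0419). It was not past the test without central nervous system replicate 1, 2 or 3 (limma adjusted p = 0.0855, 0.0776 and 0.173) or salivary gland replicate 2 (0.0551), and with epidermis left out of the mean the difference was 0.06. ChAT, which makes acetylcholine, the main excitatory transmitter of the fly brain, was picked after its values were seen and stood at 0.66, 0.80 and 0.86 (difference 0.48; limma adjusted p = 0.186). The salivary gland mean of ChAT was 0.68.

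Of 19 receptor and channel genes tested, 5 were higher and 0 lower (12% and 10.2% over all features), with a median difference of 0.04. The count was 1 without wing disc replicate 1 or 2, which left 12 and 13 genes tested, and 2 without central nervous system replicate 2, epidermis replicate 2 or midgut replicate 1 or 2. It was 3 without central nervous system replicate 1, epidermis replicate 1 (2 higher and 1 lower) or salivary gland replicate 1. The acetylcholine receptor subunit nAChRbeta2 stood at 2.10, 1.98 and 1.84 against 0.15 to 1.42 (difference 1.21, SE 0.26; limma adjusted p = 0.00427). Lcch3, a subunit of GABA-gated channels, stood at 0.78, 1.03 and 1.19 against -0.83 to 0.6 (difference 1.19, SE 0.18; limma adjusted p = 0.0003). The calcium channel gene Ca-alpha1D was higher on average (difference 1.74; limma adjusted p = 0.000819), while its epidermis mean of 0.68 was close to its central nervous system values of 1.15 and 0.85.

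Adhesion and guidance genes, which steer and bundle growing axons, had a larger median. Of 31 tested, 11 were higher and 0 lower (12% and 10.2% over all features), with a median difference of 0.59. The count was 7 of 24 without wing disc replicate 1. After Nrt came Ptp69D, a receptor tyrosine phosphatase of motor axons, at 0.25, 0.49 and 0.76 against -2.49 to 0.03 (difference 1.69, SE 0.32; limma adjusted p = 0.00203). Its own mean of 0.50 was not past the test against whole animal (limma adjusted p = 0.176). Ama, or Amalgam, the secreted ligand of Nrt, stood at 0.80, 1.37 and 1.77 (difference 1.63, SE 0.21; limma adjusted p = 7.32e-05). Like Nrt it had the wing disc as its next tissue, at a mean of 0.74.

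The off-track gene otk stood at 0.70, 1.21 and 1.78 against -0.76 to 0.15 (difference 1.42, SE 0.23; limma adjusted p = 0.000694). By pairs, 2 of 34 adhesion and guidance genes were higher than in wing disc (3.24% of all features), 11 of 34 than in epidermis (7.02%), 12 of 34 than in salivary gland (11.5%) and 15 of 35 than in midgut (14.3%). By limma 0 were lower in any pair at an adjusted p under 0.05, and at an unadjusted p under 0.05 1 was lower than in epidermis and 1 than in wing disc. The genes trn and Ten-m, known in both axon targeting and epithelial cells, had wing disc means of 1.0 and 0.73 beside central nervous system values of 0.94 to 1.16 and 0.97 to 1.68. CadN, the neuronal cadherin, was picked after its values were seen, was compared only with the whole animal and stood at 1.60, 1.73 and 1.79, while its 8 other values lay between -2.01 and -0.43 (mean 1.71, SE 0.23; limma adjusted p = 7.61e-05).

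Regulators of neural stem cells and of neural identity were higher in part. Of 24 neuroblast and neural identity regulators tested, 9 were higher and 0 lower (12% and 10.2% over all features). By the stricter rule 6 of them were highest in the central nervous system, and the median difference was 0.48. Without salivary gland replicate 1 or 2, 18 genes were tested and 4 and 5 were higher. The zinc finger gene wor, or worniu, which keeps neuroblasts dividing, stood at 1.70, 2.41 and 3.65 against -0.83 to 1.13 on 10 other arrays (difference 2.40, SE 0.33; limma adjusted p = 0.000177). Its relative sna, or snail, stood at 1.69, 2.51 and 2.98 against -0.09 to 1.22 (difference 1.92, SE 0.28; limma adjusted p = 0.000251). Both lay apart from every other array, and both varied more between the 3 samples (SD 0.99 and 0.65) than elav did (SD 0.39).

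Genes of asymmetric division were higher in part. The cargo adaptor mira, or miranda, which carries fate determinants into the daughter cell, stood at 2.22 and 2.59 on 2 arrays against -0.11 to 1.42 on 8 others (difference 1.90, SE 0.32; limma adjusted p = 0.00178). Its cargo brat, a growth repressor, stood at 2.05, 2.79 and 2.41 against -0.92 to 1.32 (difference 2.38, SE 0.26; limma adjusted p = 2.19e-05). The gene pon, or partner of numb, stood at 1.01, 1.43 and 1.39 with a wing disc mean of 1.39 (difference 0.74, SE 0.21; limma adjusted p = 0.0198). It was not past the test without central nervous system replicate 2 (0.67; limma adjusted p = 0.0969) or replicate 3 (0.69; limma adjusted p = 0.0907). The adaptor insc had a difference of 0.23 (limma adjusted p = 0.487) and the Notch inhibitor numb one of 0.01 (limma adjusted p = 0.976), and neither was past the test.

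Among factors that pattern neural lineages, Sox102F stood at 1.8, 1.86 and 2.06 against -1.59 to 0.95 (difference 2.24, SE 0.20; limma adjusted p = 2.48e-06). The Pax6 gene ey, or eyeless, used in the mushroom body and the eye disc, stood at 1.21 and 2.24 against -1.39 to 0.19 (difference 2.23, SE 0.30; limma adjusted p = 0.000114). The proneural gene tap was lower in level but tight, at 1.18, 1.57 and 1.37 against 0.03 to 0.64 (difference 1.09, SE 0.18; limma adjusted p = 0.000486). The homeobox gene zfh2 was higher than the mean of the others by 2.16 (SE 0.24; limma adjusted p = 2.44e-05), but its wing disc mean of 1.72 was above its central nervous system mean of 1.51. The temporal factors cas (difference -0.02) and Kr (0.60) were not past the test, with limma adjusted p of 0.965 and 0.326.

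Of 7 further regulators compared only with the whole animal, 3 were higher and 1 was lower (17.9% and 4.51% over all such features). The nuclear receptor gene tll, or tailless, stood at 2.0, 0.88 and 2.06 (mean 1.65; limma adjusted p = 0.00018), and slp2 at 0.93 and 1.56 (mean 1.24; limma adjusted p = 0.00267). Outside the list, Oli, a bHLH factor of motor neurons, stood at 2.34, 2.54 and 3.03, and its 6 other values did not exceed 0.03 (mean 2.64, SE 0.22, limma adjusted p = 6.83e-06). The 5 lowest named genes tested only against the whole animal were fdl (mean -2.44), CG5493 (-2.15), Irk1 (-1.66), Cad74A (-1.58) and CG9010 (-1.57). Each was past the limma test. The Hox genes were nearly unmeasured. Dfd was tested (difference -0.55; limma adjusted p = 0.188) and Scr was seen on 1 central nervous system array.

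Replication genes were high in both central nervous system and wing disc. Of 49 DNA replication and mitosis genes tested, 27 were higher and 0 lower (12% and 10.2% over all features). Their median difference was 0.82. The central nervous system had the highest tissue mean for 10 of them, and none met the stricter rule of log2 1 above each other tissue. The count was 17 of 39 without central nervous system replicate 2. The condensin gene SMC2 stood at 1.67, 1.71 and 1.22 (difference 1.88, SE 0.23; limma adjusted p = 4.41e-05), and its wing disc mean was 1.62. The helicase gene Mcm2 stood at 0.92, 1.26 and 1.25 with a wing disc mean of 1.24 (difference 1.42, SE 0.21; limma adjusted p = 0.000221). PCNA, the sliding clamp of replication, stood at 1.49, 1.24 and 1.27 with a wing disc mean of 1.98 (difference 1.27, SE 0.24; limma adjusted p = 0.00155).

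By pairs, 22 of 53 replication and mitosis genes were higher than in epidermis (7.02% of all features). Against salivary gland it was 31 of 53 (11.5%), against midgut 32 of 52 (14.3%) and against wing disc 1 of 52 (3.24%). That gene was fzr, an activator of the anaphase-promoting complex, named after its value was seen, at 1.35 above wing disc (limma adjusted p = 0.0128). None was lower in any pair by limma at an adjusted p under 0.05, and 8 were lower than in wing disc at an unadjusted p under 0.05. List medians of the log2 ratio were 0.68 in the central nervous system, 0.82 in wing disc, -0.10 in epidermis, -0.38 in salivary gland and -0.52 in midgut.

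Chromatin genes were high in the same tissues. Of 34 tested, 22 were higher and 0 lower (12% and 10.2% over all features), with a median difference of 0.88. The highest tissue mean was in the central nervous system for 23 of them. None met the stricter rule of log2 1 above each other tissue with each pair past the test. Caf1-55, a histone chaperone subunit, stood at 1.94, 1.97 and 1.79 with a wing disc mean of 1.79 (difference 1.68, SE 0.17; limma adjusted p = 7.79e-06). The histone variant gene His2Av stood at 2.02, 1.45 and 1.55 (difference 1.68, SE 0.20; limma adjusted p = 5.13e-05), with a wing disc mean of 1.42. The nucleosome remodeller brm stood at 1.35, 1.34 and 1.05, above its highest other array of 0.74, and its difference of 1.59 (SE 0.18; limma adjusted p = 2.35e-05) shrank to 0.61 against wing disc alone, which was not past the test (limma adjusted p = 0.167). By pairs 0 of 36 chromatin genes passed the limma test against wing disc in either direction (3.24% higher and 2.29% lower over all features). At an unadjusted p under 0.05, 6 were higher and 2 lower than in wing disc by limma. Against midgut 27 of 36 were higher (14.3% of all features).

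**Figure D4:**
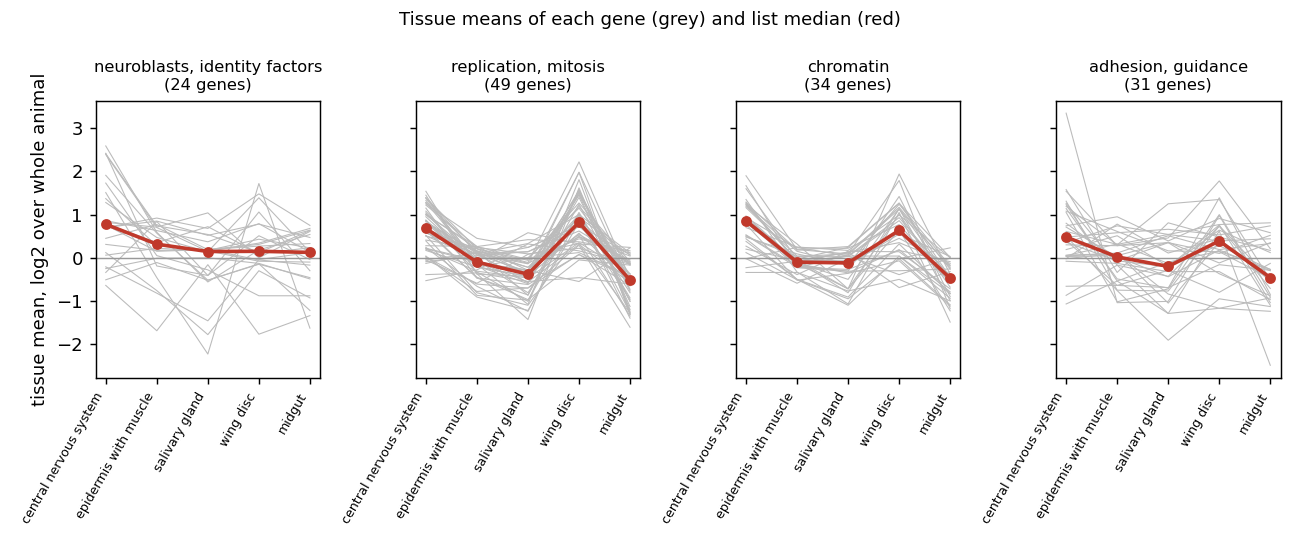
Mean log2 ratio to whole animal (y axis) in each tissue for every tested gene of 4 lists (grey lines) with the list median (red). Replication and chromatin genes peak in both central nervous system and wing disc (medians 0.68 and 0.82, and 0.85 and 0.64), while the neuroblast regulators have a median of 0.77 in the central nervous system and at most 0.31 elsewhere.

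Glial genes moved in part. Of 14 tested, 5 were higher and 0 lower (12% and 10.2% over all features), with a median difference of 0.29. The count was 3 without central nervous system replicate 1 and 3 without replicate 2. Besides alrm, fabp, a fatty acid binding protein gene, stood at 0.66, 0.22 and 0.86, above all other arrays (difference 1.42, SE 0.18; limma adjusted p = 4.96e-05). The gap junction gene ogre (difference 1.16) and the septate junction gene Nrx-IV (0.95), both also used by epithelia, had wing disc means of 1.03 and 0.76, near their central nervous system means of 0.79 and 0.80. With midgut left out of the mean of the other tissues, neither was past the test (differences 0.68 and 0.63; limma adjusted p = 0.0729 and 0.0953). The blood-brain barrier receptor gene moody had a difference of 0.21 (limma adjusted p = 0.523) and the engulfment receptor gene drpr one of -0.23 (limma adjusted p = 0.342). For loco it was -0.41 (limma adjusted p = 0.287). By pairs, 1 of 16 glial genes was lower than in epidermis (8.41% of all features) and 2 of 17 than in midgut (12.6%). In the same pairs 2 of 16 and 8 of 17 were higher (7.02% and 14.3%). Against salivary gland 5 of 15 were higher (11.5%) and against wing disc 3 of 17 (3.24%), with 0 lower in either.

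The glial fate gene gcm, or glial cells missing, was compared only with the whole animal. It stood at 1.91, 1.88 and 2.40, and its 6 other values ran from -0.88 to 0.18 (mean 2.06, SE 0.19; limma adjusted p = 1.56e-05). Its paralogue gcm2 stood at 1.33 and 1.25 (mean 1.29; limma adjusted p = 0.00184), close to its midgut value of 1.17.

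Part of the splicing and cytoskeleton genes were higher, where over all features 12% were higher and 10.2% lower. Of 24 splicing and RNA-binding genes, 8 were higher and 1 was lower (median 0.31), and the calls numbered 4 without central nervous system replicate 2 and 5 without replicate 3. The RNA-binding gene glo, or glorund, stood at 2.01, 1.94 and 1.72 against -1.94 to 1.47 (difference 1.96, SE 0.31; limma adjusted p = 0.000328). Of 18 cytoskeleton genes, 9 were higher and 0 lower (median 0.66). Of the 9, 6 were tubulin genes, which share much sequence, for example betaTub60D at 0.75, 1.0 and 1.02 and betaTub56D at 0.73, 0.99 and 0.83, and cross-hybridisation between paralogues cannot be told apart from a shared change. Cyfip, an actin regulator of neurons, stood at 0.57, 0.72 and 0.59, above every other array (difference 1.08, SE 0.26; limma adjusted p = 0.00628).

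Ring gland genes were higher in part. Of 6 tested, 3 were higher and 0 lower (12% and 10.2% over all features), with a median difference of 0.67. The count was 1 without epidermis replicate 3, midgut replicate 1 or midgut replicate 2. The gene phtm, or phantom, which encodes a cytochrome P450 of ecdysone synthesis, stood at 1.52, 2.66 and 2.20 against -0.92 to 0.86 (difference 2.42, SE 0.28; limma adjusted p = 4.94e-05) and was highest in the central nervous system. Npc1a, which delivers sterol for that synthesis, stood at 1.11, 0.98 and 0.33 against -0.7 to 0.1 (difference 0.95, SE 0.18; limma adjusted p = 0.00149). Akh, the adipokinetic hormone of the corpora cardiaca, stood at 0.43, 0.89 and 1.12 and its difference of 0.47 was not past the test (limma adjusted p = 0.137), though it was with array weights (0.52; limma adjusted p = 0.0445). Ring gland list medians were 0.48, 0.89 and 0.73 on the central nervous system arrays and -0.26 to 0.01 in the other tissues, and their part in other results was not tested.

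Eye disc genes had a median of 0.34, 0.13 and 0.24 on the central nervous system arrays and 0.20 to 0.44 elsewhere. Of 7 tested, 1 was higher and 1 lower (12% and 10.2% over all features), with a median difference of -0.14. The higher gene was ey (difference 2.23), given above among the neural factors, which was highest in the central nervous system by the stricter rule. The list had 0 calls without central nervous system replicate 1 or 2. The photoreceptor factor gl, picked after its values were seen, stood at 0.40, -0.16 and 0.48, with tissue means of 0.36 to 0.65 elsewhere. Imaginal disc patterning genes had list medians of 0.03, 0.07 and 0.09 on these arrays against 1.31 in wing disc. The Notch target E(spl)m7-HLH, of that list, stood at 0.80, 1.34 and 1.55 (difference 1.22, SE 0.23; limma adjusted p = 0.00176), with a wing disc mean of 1.48.

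Transcripts of other cell types had low ratios on the central nervous system arrays. Muscle genes had list medians of -2.33, -1.99 and -2.22 on the central nervous system arrays, digestive enzyme genes -3.32, -3.55 and -3.17, and salivary gland genes -1.84, -1.96 and -2.23. In their own tissues the medians were 0.61 (epidermis with muscle), 1.45 (midgut) and 3.61 (salivary gland). Blood cell genes (-1.18, -1.16 and -1.66) and fat body genes (-1.49, -1.95 and -1.90) were low on all 3 arrays as well. For example, Lsp2, a storage protein of the fat body, stood at -4.68, -4.39 and -3.78, and its salivary gland mean was -0.03. With salivary gland left out of the mean, Lsp2 was not past the test (difference -0.54, limma adjusted p = 0.308). The blood cell and fat body lists were low in other tissues too. Blood cell medians were -1.27 in wing disc and -0.66 in epidermis, and fat body medians -1.98 in wing disc and -0.67 in salivary gland. Against wing disc 0 of 11 blood cell and 0 of 12 fat body genes were lower (2.29% of all features).

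By pairs, the muscle, digestive enzyme, salivary gland and cuticle lists were lower mainly against the tissue each list marks. Over all features 10.2% were lower than the mean of the other 4 tissues. Pair by pair, 8.41% were lower than epidermis, 7.73% than salivary gland, 2.29% than wing disc and 12.6% than midgut. Of 16 muscle genes tested, 9 were lower and 0 higher (median -1.0), and by pairs 15 of 16 were lower than in epidermis with muscle but 1 of 18 than in wing disc. Of 44 digestive enzyme genes, 26 were lower and 0 higher (median -1.39), and by pairs 40 of 47 were lower than in midgut but 0 of 45 than in epidermis and 0 of 47 than in wing disc. Of 8 salivary gland genes, 4 were lower, and by pairs 7 of 8 were lower than in salivary gland and 0 of 8 than in any other tissue. Of cuticle genes, 17 of 59 were lower (11 without central nervous system replicate 3) and by pairs 26 of 74 were lower than in epidermis and 5 of 70 than in wing disc. The trypsin gene alphaTry, at -4.98, -5.19 and -4.89, showed the pattern, with means of -3.82 to -3.64 in 3 tissues and 1.75 in midgut.

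Fewer genes were below all 4 tissues at once. Pepck1, which makes phosphoenolpyruvate for gluconeogenesis, stood at -3.80, -3.75 and -3.12 against -2.62 to 1.06 elsewhere (difference -3.26, SE 0.21; limma adjusted p = 8.34e-08). It was below each tissue by pairs, from -1.22 against wing disc to -4.30 against epidermis, all past the test. Its 2 rows disagreed in size, at -4.21 and -2.37. Pvr, the receptor for PDGF- and VEGF-like ligands used in blood cells and epithelia, stood at -1.69, -1.60 and -1.99 against -0.98 to 0.95 (difference -1.64, SE 0.19; limma adjusted p = 2.68e-05). It too was below each tissue, by -1.0 to -2.20.

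The muscle tropomyosin gene Tm2 stood at -4.32, -4.35 and -4.89, below its lowest other array of -3.62 (difference -2.39, SE 0.31; limma adjusted p = 6.73e-05). The filamin gene cher stood at -2.67, -2.78 and -2.43 against -1.76 to 2.22 (difference -2.14, SE 0.40; limma adjusted p = 0.00121). The epithelial transcription factor gene bowl stood at -0.91, -1.35 and -1.61 with a wing disc mean of 1.71 (difference -1.8, SE 0.28; limma adjusted p = 0.000263). The PDZ protein gene kermit stood at -2.77 and -2.68 on 2 arrays, and no other array was below -1.34 (difference -2.17, SE 0.20; limma adjusted p = 5.63e-06).

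Among metabolic genes, lower calls outnumbered higher ones, while over all features 12% were higher and 10.2% lower. V-ATPase subunit genes, of the proton pump that acidifies vesicles and the gut lumen, had 1 member higher and 7 lower of 20, with a median difference of -0.79. The calls numbered 5 without central nervous system replicate 1 and 4 without replicate 2 or 3. By pairs 12 of 20 were lower than in midgut (12.6% of all features) and 7 of 20 than in epidermis (8.41%). Against salivary gland 6 of 20 were lower (7.73%). Against wing disc 3 of 21 were higher (3.24%), and 0 were lower at an adjusted or an unadjusted p under 0.05. The list median of the ratio was -1.1 in the central nervous system and -1.29 in wing disc. VhaM9.7-a, a small membrane subunit, was the higher member, at 2.56, 3.0 and 2.55 against -0.81 to 0.47 (difference 2.74, SE 0.24; limma adjusted p = 1.6e-06), and it was past the test against each tissue. Its paralogues VhaM9.7-b and VhaM9.7-c, picked after their values were seen, had differences of -0.11 and -0.41, and neither was past the test. Vha36-1, a stalk subunit, stood at -1.0, -1.71 and -1.69 (difference -1.02, SE 0.23; limma adjusted p = 0.00396), with a wing disc mean of -1.84.

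Of 92 detoxification genes, 3 were higher and 32 lower (12% and 10.2% over all features), with a median of -0.57. The calls numbered 22 without central nervous system replicate 2 and 19 without replicate 3. By pairs 44 of 107 were lower than in midgut (12.6% of all features). GstZ2, a zeta class glutathione transferase, went the other way, at 2.51, 2.06 and 1.68 against -2.3 to 0.43 (difference 2.64, SE 0.28; limma adjusted p = 1.21e-05). Gpdh1, a glycerol phosphate dehydrogenase, stood at -1.72, -2.79 and -2.72 (difference -1.40, SE 0.25; limma adjusted p = 0.000891). Among 51 respiratory chain genes 0 were past the limma test (9 at an unadjusted p under 0.05, 5 with array weights), and the median difference was -0.02. The respiratory count was 2 without epidermis replicate 1 and 1 without midgut replicate 2 or central nervous system replicate 1 or 2. Among 29 ribosomal protein genes 1 was, RpS26, at -0.98, -1.34 and -1.42 (difference -0.87, SE 0.19; limma adjusted p = 0.00367), and the median was -0.00. Proteasome genes also had 0 of 25 past the limma test (2 at an unadjusted p under 0.05, 2 with array weights, median -0.29). By pairs 16 of 25 were lower than in epidermis (8.41% of all features). The count of 0 against the mean of the others was 1 without central nervous system replicate 1, epidermis replicate 1 or midgut replicate 3.

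Against the mean of the other 4 tissues, at an unadjusted p under 0.05, limma called 0 adhesion, neuroblast, chromatin, glial, cytoskeleton or ring gland genes lower. It called lower 1 receptor or channel gene, 1 replication gene and 2 neuropeptide genes. Lower as well were 2 neuronal identity and synapse genes and 2 disc patterning genes. So was 1 gene each of the transmitter, splicing, eye disc and dpr or DIP lists. In the same comparison it called 0 muscle, digestive, salivary gland, cuticle or fat body genes higher. Of 5 dpr and DIP cell surface genes tested, 1 was higher and 1 lower at an adjusted p under 0.05 (12% and 10.2% over all features). Their median difference was -0.23, and 0 were called without central nervous system replicate 2 or 3.

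**Figure D5:**
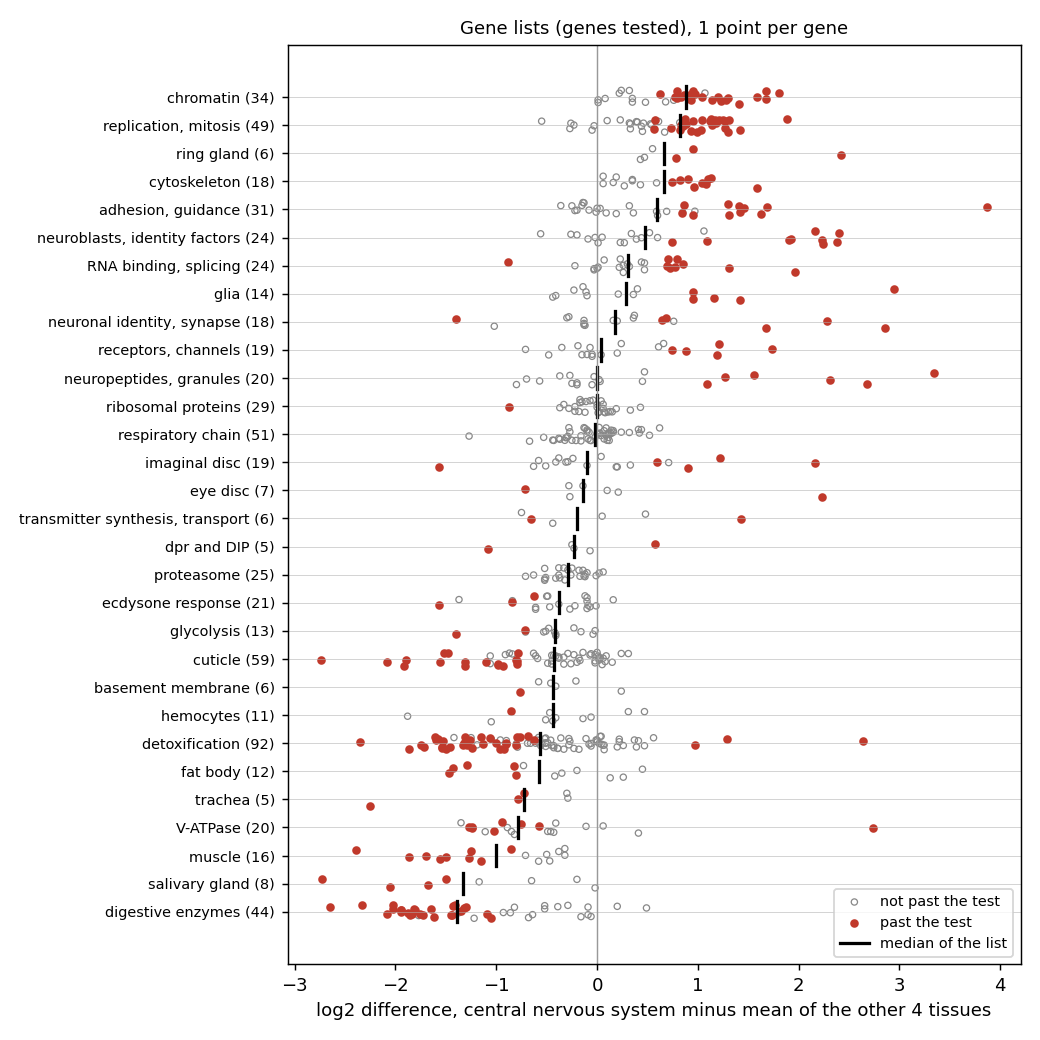
Difference between central nervous system and the mean of the other 4 tissues (x axis, log2) for every tested gene of each list of at least 5 genes, ordered by list median (black bars), with genes past the test in red and the number tested in brackets. Chromatin and replication genes head the order with medians of 0.88 and 0.82, digestive enzymes end it at -1.39, and lists such as neuropeptides have a median near 0 with a tail of red points to the right.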

How the data were processed

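RNA of each tissue and of the whole animal reference was amplified by in vitro transcription and hybridised together on 1 array, with no dye swaps, per the labels. The deposited values are log2 ratios of tissue over whole animal. How the arrays were scanned, background-corrected, normalized and filtered, and why some cells are blank, is not stated in the labels. The log2 scale was read from the values. Of 20000 rows, 14051 held a value, and 10817 of these carried 1 gene symbol, 227 several and 3007 none in the platform annotation (10813 matched a current gene record).

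Arrays were centred on their median and the rows of a gene averaged, giving 13128 features. In limma 3.58.1 (R 4.3.3), 1 mean per tissue was fitted over all 15 arrays with eBayes. The contrast was central nervous system minus the equally weighted mean of the other 4 tissues, for features on at least 2 arrays of every tissue, with Benjamini-Hochberg adjustment over all features and a threshold of 0.05. Pairs and whole animal were tested likewise. A dye effect of a gene cancels between tissues but stays in comparisons with whole animal. The fit was checked on simulated data. Tables and plots were made with pandas 2.3.3 and matplotlib 3.10.9.

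Genes to name were drawn from the markers, the 15 largest differences each way among genes whose arrays lay apart, up to 6 called members per list, any measured neuropeptide, neuroblast, glial or Hox gene, the 8 largest and 5 lowest values against whole animal among genes tested only there, and the 8 widest gaps to the next tissue. Not all genes so drawn are given in the text. The comparison and gene lists were chosen with earlier results of these data known. Alternatives changed the centring, scaling, weights, filter, row rule and tissues in the mean, left out each array, and added the replicate number.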

Additional observations from a re-analysis of the deposited data

How the results depend on the processing

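Against the other 4 tissues, 1866 calls became 936 with a minimum difference of log2 1, and against whole animal 4305 became 2054 with that minimum and 2585 with features on all 15 arrays. The balance of higher and lower calls changed with the centring. Centred on features measured on all 15 arrays, the 1008 higher and 858 lower calls became 924 and 919. Without centring they were 1125 and 709. Against whole animal, 2077 higher and 2228 lower became 2644 and 1899 with that centring, and 2268 and 2095 without centring. With array weights the calls rose to 3078 against epidermis and 1401 against wing disc, and genes lowest in the central nervous system from 13 to 23. These were 8 with 3 arrays needed per tissue, 8 with features on all 15 arrays and 5 after scaling, and genes highest there went from 100 to 47 under both stricter filters. Leaving out 1 array gave 1159 to 1977 calls against the other tissues, 312 to 555 against wing disc, 63 to 100 genes highest and 5 to 36 genes lowest. The sign turned for ple (-0.66) to 0.06 without epidermis in the mean and for Eig71Ee (-1.68) to 0.55 without salivary gland. The cause of these changes was not tested. Some of the settings, but not all, also held fewer features or arrays. For the 144 named genes past the test against the other tissues, 3885 of 4124 values under alternatives kept their direction and side of the threshold. By gene, 84 of the 144 kept their call under every alternative, and 89 did so when the minimum difference was left aside. Over all tissues, deviations of same-numbered arrays correlated from -0.487 to 0.352, so the numbers were not taken as pairs, although 9 of 15 arrays correlated best with their own number. For central nervous system and epidermis alone the 3 same-numbered pairs correlated at 0.136, 0.139 and 0.137, and with the replicate number as a block that comparison had 1482 calls against 1484 without it. With the block the calls were 1880 against the other tissues, 497 against wing disc and 4272 against whole animal. Under it Capa (adjusted p = 0.0604), ple (0.0618), ouib (0.0867), serp (0.0561), Gasp (0.0509) and, against whole animal, Awh (0.0786) were no longer called, and jumu was (0.0118). Empty cells left 4696 features untested, and dim spots cannot be told from blank ones.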

Other observations

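Some values of a single array stood far from those of its group. The blood cell receptor gene NimC1 stood at -1.03, -1.73 and -7.48 on the 3 central nervous system arrays. The kinase gene wnd stood at 0.35, 0.44 and -2.63, again with replicate 3 as the low value. Both values were kept. Neither gene was past the limma test against the other 4 tissues (NimC1 adjusted p = 0.159, wnd adjusted p = 0.113), and NimC1 is 1 of the 11 tested blood cell genes. These examples were chosen after their values were seen.

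Features measured on at least 2 central nervous system arrays and on fewer than 2 arrays of each other tissue numbered 68, of which 55 are named genes. They could not be tested against the other tissues, so no difference is given for them.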
